A study of Homo sapiens with 8 samples.

Results

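The core of the PI3K and AKT pathway was described through 8 genes, PIK3CA, PIK3CB, PIK3R1, PDPK1, AKT1, AKT2, MTOR and FOXO3. All probes that the array design assigns to these gene symbols were taken, which gave 8 of 36337 gene names and 14 of 50599 probes on the array. RNA of 2 human thyroid lines was hybridised to 8 single-colour Agilent arrays, with 2 arrays per group. Nthy-ori 3-1, immortalized from normal thyroid follicles, received the miRNA mimic pre-miR-375 or was labelled CTL. TT, established from medullary carcinoma, a tumour of the calcitonin-producing C cells, received the miRNA inhibitor antagomiR-375 or was labelled CTL. All cells were collected 48 h after transfection. The labels give 5 nM for the precursor and 20 nM for the antagomiR, and the methods of the study give other concentrations. The control reagent is known from the methods alone, as pre-miR-CTL for Nthy-ori 3-1. For TT the account of the transfections names antagomiR-CTL and the account of the arrays does not, so the reagent of the TT control arrays is not settled. The methods call the replicates biological, and the labels do not say whether the 2 samples of a group were separate cultures.

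Growth factor receptors bring class I PI3K to the membrane, where its catalytic subunit (PIK3CA, PIK3CB), held and stabilized by a regulatory subunit (PIK3R1), makes the lipid messenger phosphatidylinositol trisphosphate. The lipid gathers PDPK1, a kinase often called PDK1, and the AKT kinases, and PDPK1 and a complex of MTOR phosphorylate and activate AKT. AKT then relieves the inhibition of a further MTOR complex, which drives protein synthesis, and keeps the transcription factor FOXO3 out of the nucleus, so that much of the pathway runs through phosphorylation, which an mRNA array does not measure. PDPK1 is known from pancreatic beta cells as a target of miR-375.

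The mature miRNA is shown because both reagents act through it. Its sequence is from RefSeq (GRCh38.p14, chr2:219001648-219001669, minus strand), and the capitals mark the seed, bases 2 to 8, through which a miRNA pairs with its targets.
hsa-miR-375-3p: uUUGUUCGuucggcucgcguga
A 7-base site complementary to this seed, CGAACAA, was in 0 of the 14 probes, searched on the strand of the transcript, and in 0.0613% of all 50599 probes. That says only that these letters are not in the stretches the probes read, and the rest of each transcript was not searched. The following 60-base probes, with hg19 positions from the files, are from genes whose probes lie far apart in the transcript. The PIK3CA probes gave the same direction within each line, and the PDPK1 probes did so in TT cells. In Nthy-ori 3-1 cells the pairs of both PDPK1 probes went opposite ways. The AKT2 probes did not read alike with pre-miR-375, and the AKT2 probe shown is not the one that differed. The other PDPK1 and AKT2 probes are not shown. The probes shown have at least 1 reading frame without a stop codon, and no base is marked.
PIK3CA A_21_P0012238 (chr3:178938816-178938875, plus strand): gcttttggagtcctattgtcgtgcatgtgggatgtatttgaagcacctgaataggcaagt
PIK3CA A_23_P92057 (chr3:178948163-178951939, plus strand): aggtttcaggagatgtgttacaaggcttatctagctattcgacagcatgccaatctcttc
PDPK1 A_24_P830690 (chr16:2631645-2631704, plus strand): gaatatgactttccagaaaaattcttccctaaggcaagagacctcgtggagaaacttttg
AKT2 A_33_P3400171 (chr19:40761075-40761134, minus strand): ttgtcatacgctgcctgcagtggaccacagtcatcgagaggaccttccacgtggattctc
The second PIK3CA probe spans 3777 bases of genome for its 60 bases and so crosses an exon junction. The files place the PIK3CA probes at positions 2214 and 3091 of the transcript, the PDPK1 probes at 1035 and 6621, and the AKT2 probes at 516, 2761 and 5240. AKT1, PIK3CB, PIK3R1 and MTOR have 1 probe each. FOXO3 has 3, of which A_33_P3240392 (chr6:109005852-109005911) and A_33_P3375665 (chr6:109005888-109005947) share 24 bases and are not independent. FOXO3 and PDPK1 have near-identical copies elsewhere in the genome, and whether RNA of those copies reached the probes was not tested.

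Between 32071 and 37340 probe spots per array were well above background, and none was saturated. SEC23A, a target of miR-375, differed from control by -1.39 on the log2 scale with pre-miR-375 and by 0.65 with antagomiR-375. The study picked SEC23A partly by these directions in its arrays of the same transfections. The values are therefore no independent check of the transfection. Of 6 C cell markers all were well above background on the 4 TT arrays, including CALCA, the calcitonin gene, and RET. Of 8 follicular markers, PAX8 and FOXE1 were at 10.31 to 10.73 and 8.28 to 8.80 in Nthy-ori 3-1 cells, whereas TG was at 4.51 to 5.02, and NKX2-1 and TSHR were not well above background there, so the line lacks defining markers of the cell it came from. The small number of arrays limits precision, since 2 arrays against 2 allow no p under 0.333 in a two-sided exact permutation test that ignores the slides. Keeping the pairs of a slide leaves fewer arrangements and so a higher limit. Values below are log2 processed intensities after quantile normalization of the 8 arrays. Levels of different probes were not set against each other. Shares given below over all probes or gene names include dim probes unless stated, and were not matched for brightness.

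When Nthy-ori 3-1 cells received pre-miR-375, PIK3R1, AKT1 and 1 of the AKT2 probes were higher on both slides, PIK3CA, MTOR and FOXO3 were lower on both slides with every probe, and PDPK1 differed in opposite directions on the 2 slides. By limma, 0 of the 14 probes passed an adjusted p of 0.05, as did 0% of the 50594 probes tested, and the smallest adjusted p of any probe was 0.318. An unadjusted p under 0.05 was reached by 3 of the 14 probes, against 14.3% of all probes. Of the 14 probes, 6 were lower in both pairs of arrays, against 27.9% of all probes, and 3 were higher in both pairs, against 31.7%. The median log2 fold change over the 8 genes, each read by its brightest probe, was -0.02, against 0.0016 over all probes.

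PIK3R1, the regulatory subunit, was at 8.08 and 8.88 on the control arrays of Nthy-ori 3-1 cells and at 8.72 and 9.76 on the pre-miR-375 arrays. The groups overlapped, since the arrays of the second slide were brighter in both, but within each slide the pre-miR-375 array was higher, by 0.64 and 0.88. The difference was 0.76 ± 0.12 (SE, n = 2 pairs), a 1.70-fold level, with an adjusted p of 0.318 by limma. In TT cells PIK3R1 was at 8.45 and 8.53 on the control arrays and at 9.19 and 9.16 on the antagomiR-375 arrays. These groups did not overlap, and the pairs differed by 0.74 and 0.63. The difference of 0.68 ± 0.09 (SE, n = 2 pairs), a 1.60-fold level, had an adjusted p of 0.512 by limma. Both TT control arrays had an RNA integrity number of 8 and both antagomiR-375 arrays one of 9, so that RNA quality and treatment cannot be told apart in any comparison of antagomiR-375 with control. The mimic and the inhibitor were thus each accompanied by a higher PIK3R1 signal on every slide, and the effect in TT minus that in Nthy-ori 3-1 was -0.08 ± 0.16 (adjusted p = 0.847, limma). Under the processing alternatives the difference ranged from 0.64 to 0.88 in Nthy-ori 3-1 cells and from 0.60 to 0.74 in TT cells, without an adjusted p of 0.05 or less. Both ends in Nthy-ori 3-1 cells and the upper end in TT cells are the single pairs given above, left when the other pair was dropped.

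**Figure D1:**
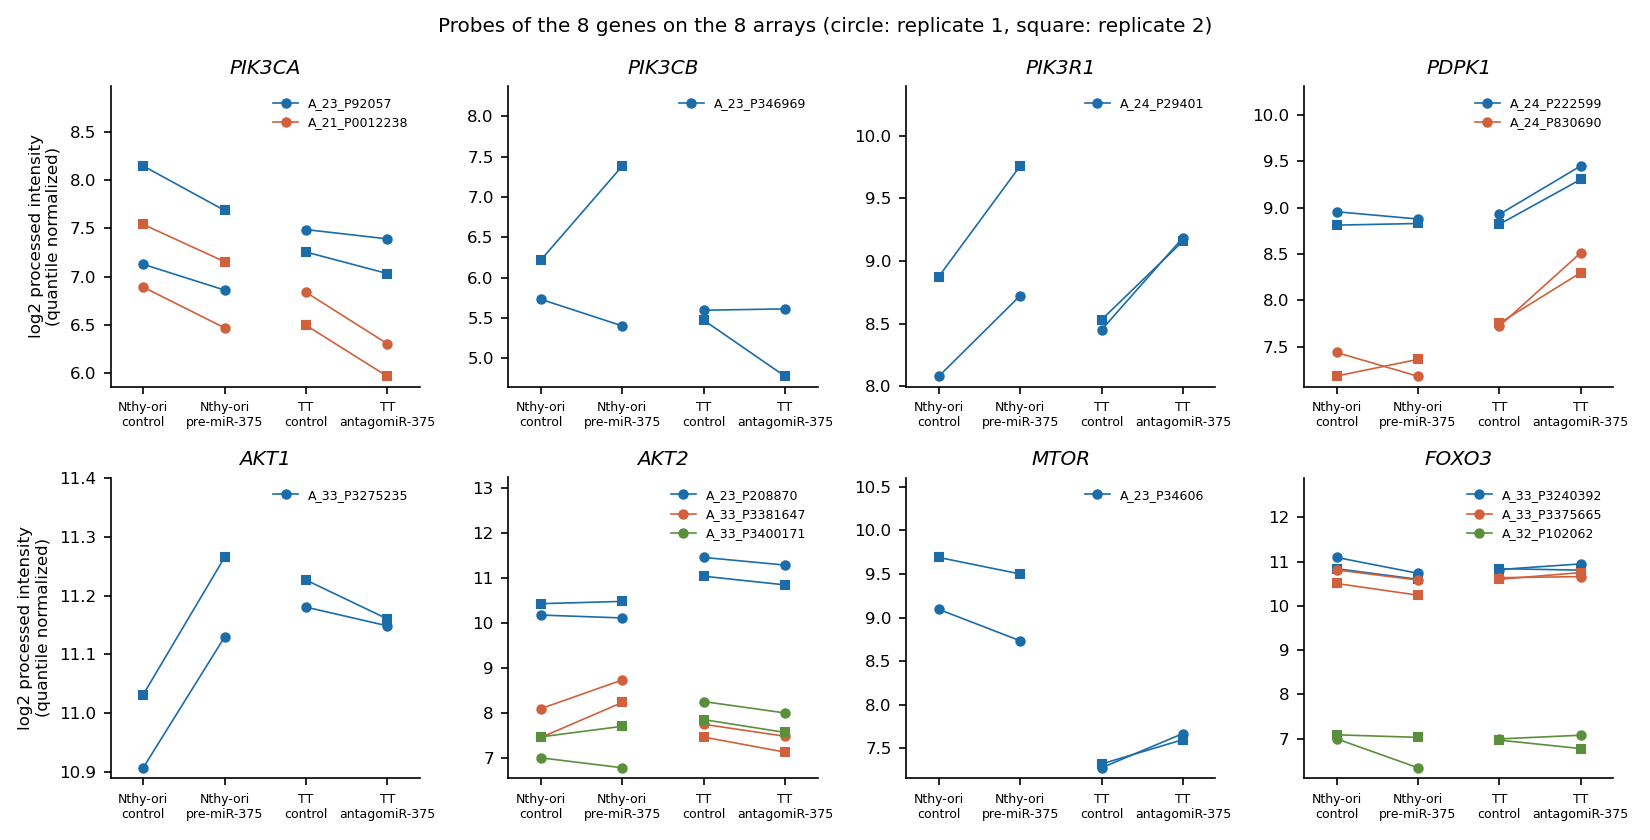
Log2 processed intensity after quantile normalization (y axis) of each of the 14 probes in the 4 groups (x axis), with a panel per gene, colours for probes, circles for replicate 1, squares for replicate 2 and lines between arrays of the same slide. PIK3R1 goes up along all 4 lines, PDPK1 goes up along the TT lines of both probes, and MTOR lies between 7.28 and 7.67 in TT cells against 8.73 to 9.69 in Nthy-ori 3-1 cells.

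PDPK1, the kinase that phosphorylates the activation loop of AKT, read 8.96 and 8.81 in Nthy-ori 3-1 control cells and 8.88 and 8.83 on the pre-miR-375 arrays with its brightest probe. The groups overlapped, and the difference of -0.03 ± 0.09 (SE, n = 2 pairs) was smaller than the gap between the control arrays. The second probe gave -0.04 ± 0.17. On the TT arrays the brightest probe was at 8.93 and 8.82 in control cells and at 9.45 and 9.30 with antagomiR-375. The second probe was at 7.72 and 7.75 in control cells and at 8.51 and 8.30 with antagomiR-375. With either probe the antagomiR-375 arrays lay above the control arrays without overlap. The differences were 0.50 ± 0.08 and 0.67 ± 0.12 (SE, n = 2 pairs), or 1.42-fold and 1.59-fold, with unadjusted p of 0.0227 and 0.0258 and an adjusted p of 0.512 for each by limma. The effect in TT exceeded that in Nthy-ori 3-1 by 0.53 ± 0.13 with the brightest probe (limma, unadjusted p = 0.0212, adjusted p = 0.219) and by 0.71 ± 0.23 with the other (adjusted p = 0.304).

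PIK3CA, the catalytic alpha subunit, was lower on every slide of both lines with both probes. Probe A_21_P0012238 read 6.89 and 7.54 in Nthy-ori 3-1 control cells and 6.47 and 7.16 with pre-miR-375. It was at 6.84 and 6.50 on the TT control arrays and at 6.31 and 5.97 with antagomiR-375. The groups overlapped in Nthy-ori 3-1 cells and not in TT cells, and the differences were -0.40 ± 0.08 and -0.53 ± 0.08 (SE, n = 2 pairs; limma, adjusted p = 0.332 and 0.512). The junction probe gave -0.36 ± 0.11 and -0.16 ± 0.09. PIK3CB, the catalytic beta subunit, lay between 4.78 and 7.39 on the 8 arrays, and its pairs went opposite ways, by -0.33 and 1.16 in Nthy-ori 3-1 cells and by 0.02 and -0.70 in TT cells. Its direction therefore rested on a single slide in each line.

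AKT1, the most widely expressed AKT kinase, was at 10.91 and 11.03 in Nthy-ori 3-1 control cells and at 11.13 and 11.27 with pre-miR-375, a difference of 0.23 ± 0.08 without overlap of the groups (SE, n = 2 pairs; limma, adjusted p = 0.435). In TT cells it was at 11.18 and 11.23 and, with antagomiR-375, at 11.15 and 11.16, a difference of -0.05 ± 0.08. AKT2, the isoform best known for insulin-stimulated glucose uptake, did not read alike with its 3 probes. The probe nearest the transcript's end, A_33_P3381647 (chr19:40736224-40736283), read 8.10 and 7.46 in Nthy-ori 3-1 control cells and 8.74 and 8.24 with pre-miR-375, higher by 0.63 and 0.78 within the slides. Its difference of 0.71 ± 0.09 (SE, n = 2 pairs) had an unadjusted p of 0.0175 and an adjusted p of 0.318 by limma. The brightest probe, A_23_P208870, and the probe nearest the start gave -0.01 ± 0.09 and 0.01 ± 0.18 in the same cells. In TT cells all 3 probes were lower with antagomiR-375 in both pairs, with differences of -0.18, -0.30 and -0.27 in the order of brightness, with adjusted p of 0.517 to 0.604. The effect of the end probe differed between the lines by -1.01 ± 0.13 (limma, unadjusted p = 0.00401, adjusted p = 0.151), the largest such difference among the 14 probes.

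MTOR, the kinase of both MTOR complexes, was at 9.09 and 9.69 in Nthy-ori 3-1 control cells and at 8.73 and 9.50 with pre-miR-375. In TT cells it was at 7.28 and 7.32 and, with antagomiR-375, at 7.67 and 7.60. It was lower on both slides with the mimic, with overlapping groups, and higher on both slides with the inhibitor, without overlap. The differences were -0.28 ± 0.10 and 0.34 ± 0.09 (SE, n = 2 pairs; limma, adjusted p = 0.445 and 0.515), and the effects differed by 0.61 ± 0.14 (unadjusted p = 0.0213, adjusted p = 0.219). FOXO3, a transcription factor that AKT holds in the cytoplasm, was at 11.09 and 10.84 in Nthy-ori 3-1 control cells and at 10.74 and 10.60 with pre-miR-375 by its brightest probe. In TT cells that probe was at 10.82 and 10.84 in control cells and at 10.95 and 10.81 with antagomiR-375, and the groups overlapped. The 3 FOXO3 probes gave -0.30 ± 0.09, -0.25 ± 0.08 and -0.36 ± 0.23 in Nthy-ori 3-1 cells (adjusted p = 0.397 to 0.612) and 0.05 ± 0.10, 0.09 ± 0.09 and -0.05 ± 0.13 in TT cells. FOXO3 in TT cells thus differed by no more than its SE.

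In TT cells, 0 of the 14 probes passed an adjusted p of 0.05 by limma, as did 0% of the 50587 probes tested. An unadjusted p under 0.05 was reached by 4 of the 14 probes, those of PIK3R1, PDPK1 and the dimmer PIK3CA probe, against 9.73% of all probes. Of the 14 probes, 6 were lower in both pairs, against 30.4%, and 5 were higher in both pairs, against 31.4%. The median over the 8 genes was -0.0012, against 0.00067 over all probes. For the difference between the effects in the 2 lines, 0 of the 14 probes passed, as did 0% of 50582 probes, and 3 had an unadjusted p under 0.05, against 16.6%. Of the 4 probes in TT cells, 2 belong to PDPK1 and share its RNA.

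**Figure D2:**
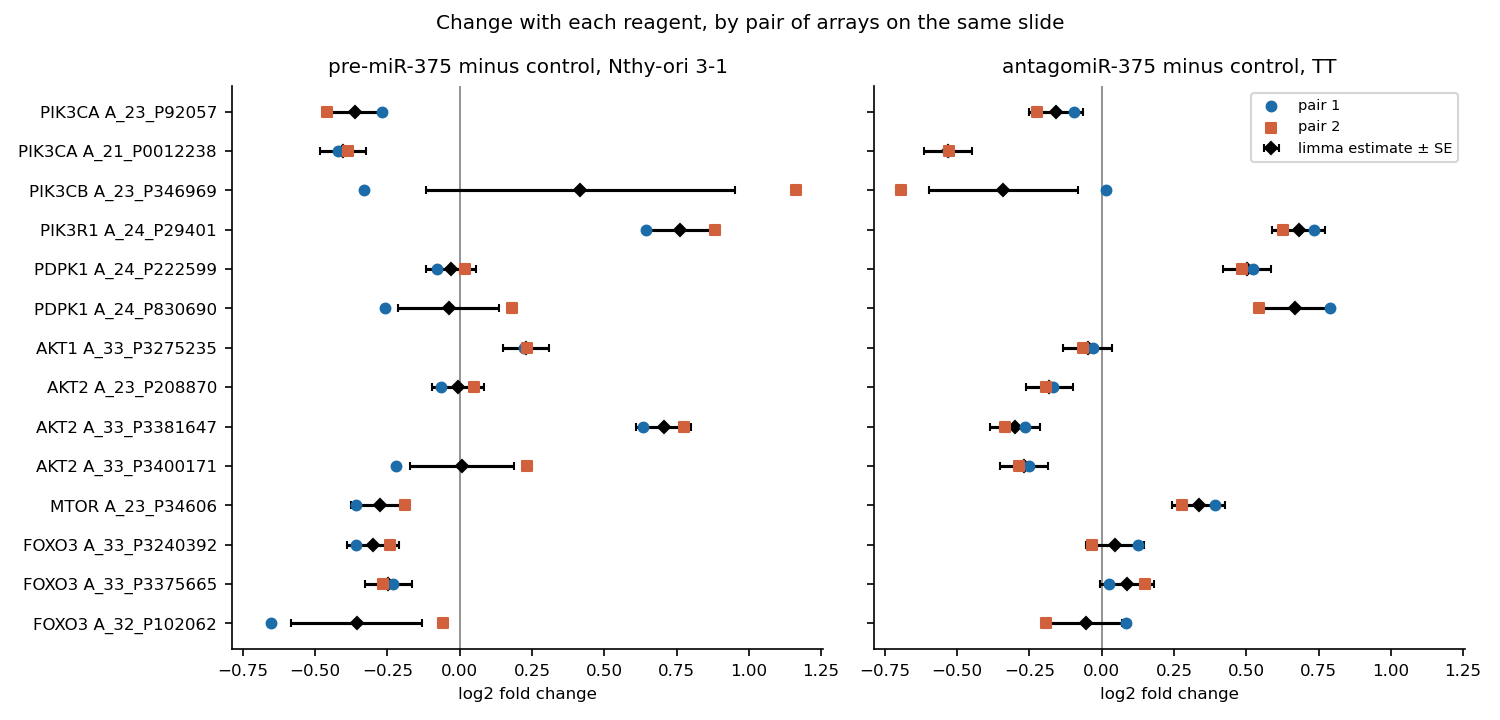
Log2 fold change (x axis) of each of the 14 probes (y axis) for pre-miR-375 (Nthy-ori 3-1) and antagomiR-375 (TT); circles and squares are the pairs of arrays on a slide, and diamonds with bars are limma's estimate ± SE. PIK3R1 lies to the right of 0 and both PIK3CA probes to the left in both panels, and the PDPK1 probes lie at 0.50 and 0.67 in TT cells and at -0.03 and -0.04 in Nthy-ori 3-1 cells.

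Of the 6 C cell markers, 4 cleared background in Nthy-ori 3-1 cells on the pre-miR-375 arrays and not in control cells. How many of all probes did so was not counted, so the count cannot be called particular to these markers. Probe spots well above background numbered 33104 and 32889 on the control arrays and 32071 and 35513 on the pre-miR-375 arrays. CALCA was at 3.91 and 3.57 on the control arrays and at 8.12 and 4.51 on the pre-miR-375 arrays. Counted from the mean of the pre-miR-375 arrays against the floor of the control arrays, CALCA was at least 3.88-fold higher with the mimic. The first array carried this value, since the second, at 4.51, lay near the floor of 4.36. CHGA, CHGB and SYP, genes of secretory granules and vesicles, were at least 1.58-fold, 2.81-fold and 2.76-fold higher. None of the 4 had an adjusted p of 0.05 or less by limma. RET was at 5.50 to 6.37 on the 4 arrays. DDC was at 1.71 to 1.73 and NKX2-1 at 1.93 to 1.98 in the line, against 14.59 to 14.92 and 12.13 to 12.35 in TT cells. The summed signal of the 6 markers, on the linear scale, was 98.3 and 129 in Nthy-ori 3-1 control cells, 268 and 466 with pre-miR-375, and 515000 to 578000 in TT cells. In the Nthy-ori 3-1 control cells RET alone of the 6 was well above background, so the rest of those sums is background signal. CALCA, the brightest marker in TT cells, read the same 18.61 on both antagomiR-375 arrays and the second control array. Quantile normalization gives probes of equal rank 1 value. In these bulk samples fewer cells of a type and less RNA per cell cannot be told apart, and the part of these markers in the differences of the 8 genes was not tested.

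Between the control cells of the 2 lines, MTOR and AKT2 differed and the other 6 genes did not pass the test. MTOR was at 7.28 and 7.32 in TT control cells against 9.09 and 9.69 in Nthy-ori 3-1 control cells, without overlap. Its difference of -2.09 ± 0.27 (SE, n = 2 arrays per line), a 4.27-fold lower level, had an adjusted p of 0.00314 by limma. AKT2 was at 11.45 and 11.04 in TT and at 10.17 and 10.43 in Nthy-ori 3-1 control cells with its brightest probe, a difference of 0.94 ± 0.22 or 1.92-fold (adjusted p = 0.0257). The probe nearest the start gave 0.81 ± 0.34 (adjusted p = 0.145), and the probe nearest the end gave -0.17 ± 0.26 (adjusted p = 0.717). The calls covered 2 of the 14 probes, 1 higher and 1 lower in TT, against 30.1% of all 50582 probes, of which 14.8% were higher and 15.3% lower in TT. An unadjusted p under 0.05 was reached by the same 2 probes, against 38.1% of all probes. Probes of the same gene share a target, so that the 14 probes are not 14 independent values.

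The remaining 6 genes lay closer together in the control cells. PIK3R1, PDPK1 and FOXO3 differed by 0.01 ± 0.35, -0.01 ± 0.12 and -0.14 ± 0.14 between the lines, AKT1 by 0.23 ± 0.12, PIK3CA by -0.27 ± 0.37 and PIK3CB by -0.44 ± 0.70 (limma, adjusted p = 0.221 to 0.993). Their dimmer probes gave -0.55 ± 0.29 for PIK3CA, 0.43 ± 0.19 for PDPK1, and -0.04 ± 0.16 and -0.06 ± 0.27 for FOXO3 (adjusted p = 0.173 to 0.926). For PIK3CA and PIK3CB the SE allows a wide range. The Nthy-ori 3-1 control arrays were at 7.13 and 8.15 for PIK3CA, and for PIK3CB the pre-miR-375 arrays, which share in the estimate of the spread, were at 5.40 and 7.39. The MTOR call was kept under 10 of 11 alternatives, with an adjusted p of 0.0517 in the other, which paired the control arrays across the lines, and the AKT2 call was lost under 8 of 11, among them every setting that left out a control array, with an adjusted p of up to 0.154. Each slide held a single line, and the RNA integrity number was 8 in TT and 9 in Nthy-ori 3-1 control cells, so that line, slide and RNA quality cannot be told apart here, nor can the reagent if it differed.

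**Figure D3:**
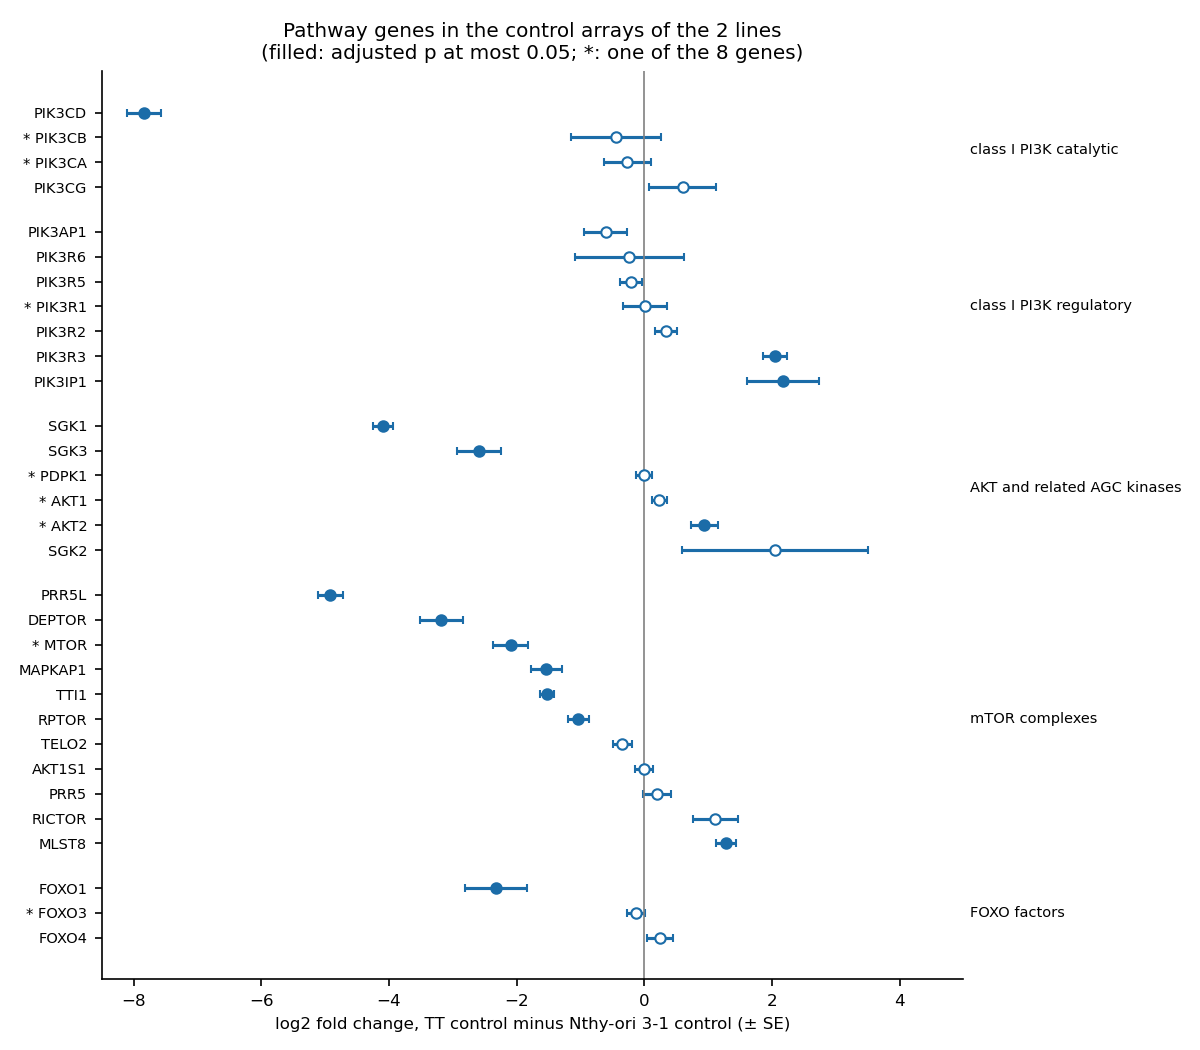
Log2 fold change, TT control minus Nthy-ori 3-1 control cells (x axis, points with ± SE), for the genes of 5 pathway lists (y axis), each read by its brightest probe; filled points have an adjusted p of at most 0.05 and asterisks mark the 8 genes, while PIK3CD, PRR5L and PIK3IP1 did not clear background in control cells of 1 line, so that their fitted values are no measured folds. Among the open points, PIK3CG and PIK3AP1 were well above background on 0 of the 8 arrays, PIK3R5 and SGK2 on 1 and PIK3R6 on 3. Their values are at or near background. MTOR at -2.09 lies among the mTOR complex genes lower in TT, and AKT2 at 0.94 lies to the right of 0.

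The surrounding pathway was read from 13 lists, of whose 97 genes 96 are on the array. With pre-miR-375, 0 of the 96 passed an adjusted p of 0.05, while 15 were higher and 16 lower at an unadjusted p under 0.05 (limma), and their median was 0.0038 against 0.0039 over all gene names. At this unadjusted threshold 2718 and 2688 of 36333 gene names were higher and lower. Upstream of PI3K, IRS2, an adaptor of the insulin receptor, was at 11.16 and 11.49 in control cells and at 9.83 and 10.16 with pre-miR-375, a difference of -1.33 ± 0.08 without overlap. In TT cells IRS2 was higher by 0.35 ± 0.11 with antagomiR-375, and the effects differed by 1.67 ± 0.14 (adjusted p = 0.149), which passed with normexp background correction and with the deposited values (adjusted p = 0.0113 and 0.0173). INSR, the insulin receptor, was higher by 0.51 ± 0.11 with pre-miR-375. Of the 7 class I regulatory genes, PIK3R1 and PIK3R3, a smaller regulatory subunit, had an unadjusted p under 0.05 with pre-miR-375, and PIK3R3 was higher by 1.03 ± 0.08. Of the 11 genes of the mTOR complexes, 7 were lower and 2 higher in both pairs, against 27.9% and 31.7% of all probes. Over the 96 genes of all lists, read in the same way, 39 were lower and 40 higher in both pairs. MAPKAP1 and RICTOR, subunits of the complex that phosphorylates AKT, differed in opposite directions, by -0.81 ± 0.11 (-1.49 with the mean of its probes) and 0.39 ± 0.08. ULK1, an autophagy kinase that MTOR inhibits, differed by 0.75 ± 0.08, and PIK3C2B and PIK3C2A, class II enzymes, by 0.56 ± 0.17 and -0.89 ± 0.14. Around FOXO3, the FOXO target genes went both ways, with differences of 1.53 ± 0.14 for SESN1 and -1.62 ± 0.09 for FBXO32. SESN1 was well above background on 7 of the 8 arrays, with a control array at 4.46, and differed by 0.72 with normexp. Among the phosphatases that reverse AKT phosphorylation, PHLPP2 differed by 0.75 ± 0.10 and PHLPP1 by -0.89 ± 0.20, which shrank to -0.40 with normexp. Some of these genes passed an adjusted p of 0.05 under an alternative. IRS2 and FBXO32 passed with normexp (adjusted p = 0.0239 for each), with the deposited values (0.0393 and 0.0380) and without dim probes (0.0433 and 0.0410). PIK3R3 passed with normexp, at a difference of 0.65, and without dim probes (adjusted p = 0.0475 and 0.0479), ULK1 with normexp (0.0473) and SESN1 without dim probes (0.0442). That filter kept a probe well above background on both arrays of either group. SESN1 could thus enter through the pre-miR-375 arrays, where it was high, and its value without dim probes is no support.

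With antagomiR-375 in TT cells, 6 of the 96 genes were higher and 5 lower at an unadjusted p under 0.05 (limma), 0 of them at an adjusted p of 0.05, and their median was 0.04 against -0.00028 over all gene names. At this unadjusted threshold 1789 and 1777 of 36328 gene names were higher and lower. Of the 6 genes of the list of AKT and related kinases, PDPK1 passed that unadjusted threshold, at 0.50. EIF4EBP1, a translation repressor that MTOR inactivates, differed by 0.46 ± 0.08 and ERBB2, a receptor of the EGF family, by -0.59 ± 0.08. TRIB2, a pseudokinase known to bind AKT, was at 11.19 and 10.89 in control cells and at 10.30 and 10.35 with antagomiR-375, a difference of -0.72 ± 0.15 without overlap, which was -0.22 with the mean of its probes. TSC1, a subunit of the complex that restrains MTOR, differed by -0.52 ± 0.31, with the opposite sign, 0.15, when its probes were averaged.

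Between the control cells, 22 of the 96 genes were higher and 27 lower in TT at an adjusted p of 0.05 (limma), against 5710 and 5491 of 36324 gene names, with medians of -0.03 and -0.05. Those gene names include dim ones. With dim probes left out, 14983 of the 30439 probes then tested passed the same threshold. Of the 11 genes of the mTOR complexes, 6 were lower in TT, and MLST8, a subunit of both complexes, was higher by 1.28 ± 0.16. Of those lower in TT besides MTOR, DEPTOR, an inhibitor of MTOR, differed by -3.18 ± 0.34, and RPTOR, MAPKAP1 and TTI1 differed by -1.03, -1.53 and -1.53, and PRR5L, which did not clear background in TT control cells, was at least 9.47-fold lower. Among the 6 AKT and related kinases, 2 were lower in TT, with differences of -2.60 ± 0.34 for SGK3 and -4.09 ± 0.16 for SGK1, a kinase close to AKT that PDPK1 also activates, while AKT2 was the single gene of the list that was higher. Of the 4 class I catalytic subunits PIK3CD alone passed the test. It was at least 77.5-fold lower in TT, where it did not clear background in control cells. The adaptor GAB2 differed by 5.20 ± 0.37, and ERBB2 and IRS2 by -3.24 ± 0.16 and -2.03 ± 0.17. Among the phosphatases INPP4A differed by 1.22 ± 0.20 and PPP2R1B, a scaffold subunit of PP2A, by -1.78 ± 0.14. BAD, a cell death protein that AKT phosphorylates, differed by 1.01 ± 0.13, CITED2, a FOXO target, by -3.03 ± 0.16, and TRIB2 and TRIB3 by 4.39 ± 0.22 and -2.19 ± 0.14. With normexp the differences of SGK1, DEPTOR and INPP4A shrank to -2.38, -1.85 and 0.81, and with the mean of all probes those of ERBB2 and PPP2R1B to -1.02 and -1.03, each still past an adjusted p of 0.05.

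**Figure D4:**
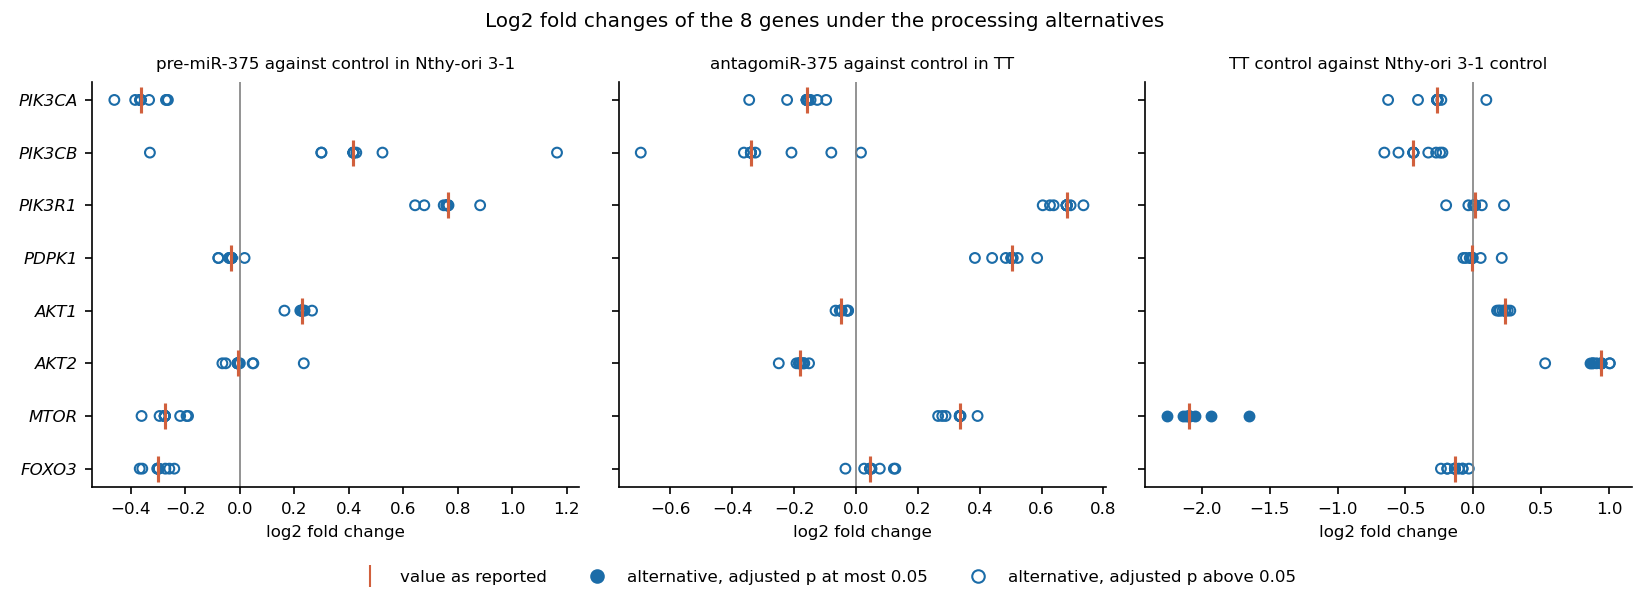
Log2 fold change (x axis) of each of the 8 genes (y axis) in the 3 comparisons under the processing alternatives, with circles for alternatives, filled at an adjusted p of at most 0.05, and vertical bars for the reported value. No circle is filled in either comparison within a line, and MTOR and AKT2 hold the filled circles between the lines.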

How the data were processed

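For each of the 8 arrays the authors deposited Feature Extraction 10.10.1.1 output (hg19 probe positions) with spot intensity values not normalized between arrays, and a table of log2 values that, judged by the values, was quantile normalized within each line. Here log2 processed intensity was averaged per probe without control spots and spots marked as outliers, and all 8 arrays were brought to 1 distribution by quantile normalization (limma 3.58.1, R 4.3.3). Each line was fitted alone with the replicate number as a block (1 residual degree of freedom), since equal numbers of a line share a slide. Replicate differences of control and treated arrays correlated across probes with r = 0.785 in Nthy-ori 3-1 and 0.329 in TT cells. Control cells were compared in a fit of 4 groups with the slide as a random block (correlation 0.500), and the effects of the lines in a joint fit with the slide as a fixed block. P-values were two-sided and adjusted by Benjamini-Hochberg over all probes. The brightest probe stood for a gene. The members and lists were chosen with earlier results of these data known. Genes were named by a rule: all members, SEC23A, the nearest gene of each member, cell type markers and, of each pathway list, the largest rise and fall at an average of at least 6 in the same direction in both pairs, of which a part is given. SGK3, RPTOR, MAPKAP1, TTI1, PRR5L and PIK3CD, where given outside that rule, and IRS2 between the lines were named after their values were seen. Where no array of a group cleared background, the fold is a lower bound, computed with that array's weakest signal counted as well above background. Genes were matched by the symbols of the array design. FOXO6 and CALCB are not among these symbols. Some genes of these lists are not reported here. The steps were tested on simulated data. Alternatives were another background correction, scaling, probe filter, block, trend, probe summary, the deposited log2 values and leaving out arrays.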

Additional observations from a re-analysis of the deposited data

Results flagged for a closer look

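With a difference in direction between the lines in every pair of arrays, 4 of the 14 probes went opposite ways with the mimic and the inhibitor, as did 19.2% of all 50582 probes. By limma's test of the effect in TT minus that in Nthy-ori 3-1, AKT1 differed by -0.28 ± 0.12 (SE, adjusted p = 0.404), the AKT2 probe nearest the transcript's end by -1.01 ± 0.13 (adjusted p = 0.151), FOXO3 probe A_33_P3375665 by 0.33 ± 0.13 (adjusted p = 0.362) and MTOR by 0.61 ± 0.14 (adjusted p = 0.219). The AKT2 and FOXO3 values are those of 1 of 3 probes. These probes, and the genes of the next paragraph, were picked by the direction of the pairs that the test uses. The test is therefore no separate support.

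Of the other pathway genes named, IRS2 differed by 1.67, PHLPP1 by 1.36, PIK3C2A, a class II PI3K, by 1.25, EIF4EBP2 by 0.99, PRR5 by 0.86, EIF4EBP1 by 0.63 and TRIB3 by 0.28, each lower with the mimic and higher with the inhibitor. TRIB2 differed by -1.20, PHLPP2 by -0.89, SGK1 by -0.53, CDKN1B, a cell cycle inhibitor, by -0.45 and TBC1D7 by -0.37, each the other way. Their adjusted p ranged from 0.149 to 0.541.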

How the results depend on the processing

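In both comparisons within a line and in the difference between their effects, 0 of the 8 genes were called under all alternatives, although normexp background correction called 1560 probes in Nthy-ori 3-1 cells and 2600 for the difference, the deposited values 577 and 1682, and leaving out dim probes 1000 in Nthy-ori 3-1 cells, against 0 as reported. Without the replicate block 0 of the 8 genes were called in either line. The medians stayed at -0.02 and -0.0012, since leaving out the block cannot change the estimates in this balanced layout. Between the control cells, 2 genes were called as reported. MTOR alone (1 gene) was called with 75th percentile scaling, with the mean of all probes of a gene, with the 4 control arrays alone and without any single control array (1 to 1), and 0 with a replicate block that paired control arrays across the lines by number. Leaving out a pair, the median over the 8 genes ranged from -0.17 to 0.034 in Nthy-ori 3-1 cells, from -0.050 to 0.072 in TT cells and from 0.0025 to 0.12 for the difference between the effects, and leaving out a control array from -0.12 to 0.011. Some signs reversed. In Nthy-ori 3-1 cells AKT2 was at 0.00040 with normexp, 0.047 with the deposited values and 0.24 with the mean of its probes, TRIB3 at 0.025 with the deposited values and TSC1 at 0.065 with the mean of its probes, against -0.21 with the brightest, and in TT cells at 0.15 against -0.52. Leaving out each pair in turn gave -0.064 to 0.050 for AKT2, -0.078 to 0.018 for PDPK1 and -0.33 to 1.16 for PIK3CB in Nthy-ori 3-1 cells, -0.034 to 0.13 for FOXO3 and -0.70 to 0.016 for PIK3CB in TT cells, and -0.20 to 0.038 for the PIK3R1 difference between the effects. Between the control cells PIK3R1 was at -0.00096 with 75th percentile scaling, PDPK1 at 0.21 with the mean of its probes, and leaving out an array gave -0.20 to 0.23 for PIK3R1, -0.073 to 0.054 for PDPK1 and -0.63 to 0.096 for PIK3CA. The cause was not tested. With 1 residual degree of freedom in a line, the number of arrays limits what could pass the adjusted threshold.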

Other observations

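For each of the 8 genes, the gene name whose brightest probe had the most similar profile over the 8 arrays was sought among 16939 gene names well above background on all 8, by the root mean square difference of log2 values after each probe's mean was subtracted. PIK3R1 was nearest to FURIN, at 0.13, and MTOR to CHCHD3, at 0.11. PDPK1 was nearest to SFXN4, at 0.086, PIK3CA to PLK4, at 0.074, and AKT1 to SMAD5, at 0.053. AKT2 was nearest to C11orf57, at 0.093, and PIK3CB to C3orf17, at 0.16. FOXO3 was nearest to a transcript that the design names THC2539563, at 0.041. These are descriptions over arrays that share lines and slides, and a small difference is easier to reach for a flat profile such as those of AKT1 and FOXO3.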
